A study of Mus musculus with 12 samples.

Results

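The 10 genes described here, Myl7, Myl4, Sln, Bmp10, Dkk3, Tbx5, Nr2f1, Nr2f2, Gja5 and Pam, are known for high or selective expression in the atria of the heart, or for setting atrial identity, and were read in RNA labelled as ventricular apex. They were chosen by name, from a list of atrial genes, out of 23457 gene rows of a count table over 12 libraries of adult mouse heart on the C57BL/6J background. All 10 have a row, and all 10 passed the filter on low counts that left 13050 genes for testing. The libraries form 2 groups of 6. The Parkin KO hearts carried floxed Parkin alleles together with MERCreMer, a Cre recombinase that tamoxifen activates, and are labelled as induced in the adult. The noninduced hearts were floxed without Cre. Both groups carry the same time label, 9 to 10 weeks after tamoxifen induction, and the promoter that drives MERCreMer is not given in the sources used here. Since Cre was present only with the deletion, effects of the 2 cannot be told apart. Parkin is a ubiquitin ligase of mitochondrial quality control, and the study compared the transcriptome with and without it. The labels describe the tissue in one place as whole heart and in the protocol as the frozen ventricular apex, and nothing in them mentions atrial tissue.

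Atrial and ventricular cardiomyocytes share most of their contractile genes but use different light chains. Myl7 and Myl4 encode the atrial regulatory and essential myosin light chains, and Myl2 and Myl3 their ventricular counterparts. The orphan nuclear receptors Nr2f1 and Nr2f2 (COUP-TFI and COUP-TFII) are known from mouse and human work to favour the atrial programme, and the T-box factor Tbx5 acts in the atria, the left ventricle and the conduction system. In an adult mouse ventricle, Myl7, Sln and Bmp10 are normally low.

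Depth was similar over the libraries, with 11610507 to 16884516 counts each, so that 1 count was worth 0.0548 to 0.0948 CPM (counts scaled to a common library size after TMM normalisation). Esr1, onto which reads of the estrogen receptor part of MERCreMer can fall, stood at 1553 to 4683 CPM in Parkin KO libraries. In the noninduced group it was 558 CPM in replicate 1, 962 CPM in replicate 3 and between 24.0 and 64.9 CPM in the remaining replicates. Replicates 1 and 3 are therefore called the libraries labelled noninduced 1 and 3, and the members' fold changes are also given without them. Parkin KO replicates 2, 5 and 6 held 495 to 634 reads of 4 Y-linked genes, the library labelled noninduced 3 held 178 beside 77.2 CPM of the female-expressed Xist, and the other libraries held at most 7, so that sex was not balanced between the groups. The ventricular light chains were high in all 12 libraries, with Myl2 at 16912 to 19146 FPKM (the authors' unit scaled to transcript length and depth) in Parkin KO and 12103 to 20250 FPKM in noninduced hearts.

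The 2 promoters of the members whose levels moved most widely and that the sequence table holds are shown, those of Myl7 and Bmp10. Of the 10 members, 7 have an entry, and Sln, Dkk3 and Tbx5 do not. Each run is the 250 bases before the annotated start, 5′ to 3′ on the gene's own strand, from RefSeq on GRCm38.p6. Capitals mark matches to 5 motifs searched on both strands, the GATA core GATAA, the T-box core GGTGTG, the nuclear receptor half-site AGGTCA, the CArG box bound by serum response factor and the MEF2 site.
Myl7, chr11:5898783-5899032, minus strand: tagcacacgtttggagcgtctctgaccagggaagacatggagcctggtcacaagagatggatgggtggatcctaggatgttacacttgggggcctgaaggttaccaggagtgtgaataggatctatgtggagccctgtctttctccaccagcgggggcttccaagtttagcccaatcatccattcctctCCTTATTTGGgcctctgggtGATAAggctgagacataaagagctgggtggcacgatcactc
Bmp10, chr6:87428744-87428993, plus strand: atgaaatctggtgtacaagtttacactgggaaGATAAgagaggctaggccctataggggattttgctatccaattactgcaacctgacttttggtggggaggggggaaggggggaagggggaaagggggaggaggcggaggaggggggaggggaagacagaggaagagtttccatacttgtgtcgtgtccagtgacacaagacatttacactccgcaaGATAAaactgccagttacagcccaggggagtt
The Myl7 window holds a CArG box 61 to 52 bases before the start and a GATA core 41 to 37 bases before it. The Bmp10 window holds 2 GATA cores, the nearer one 32 to 28 bases before the start. No matches overlap. Among all 32851 promoter windows of this length in the table, 22.6% hold the GATA core and 1.47% the CArG box, so the GATA matches are common letters and the CArG match is an uncommon one. The windows of Myl4, Gja5, Nr2f1, Nr2f2 and Pam hold none of the 5 motifs, which says only that these letters are not in those windows.

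All 10 members had their highest level in the same library, noninduced replicate 5, and their next highest in noninduced replicate 2. How far they varied differed greatly between genes. Over the 12 libraries the highest CPM was 2130 times the lowest for Bmp10, 2038 times for Sln, 1315 times for Myl7 and 460 times (459.9) for Myl4. It was 72.8 times for Dkk3, 6.49 times for Gja5, 3.69 times for Tbx5 and 3.46 times for Pam. It was 2.09 times for Nr2f1 and 1.91 times for Nr2f2. The lowest Bmp10 and Sln levels rest on 1 read each, so their fold ranges carry a wide counting error, whereas the lowest Myl7 level rests on 13 reads and the lowest Myl4 level on 27.

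**Figure D1:**
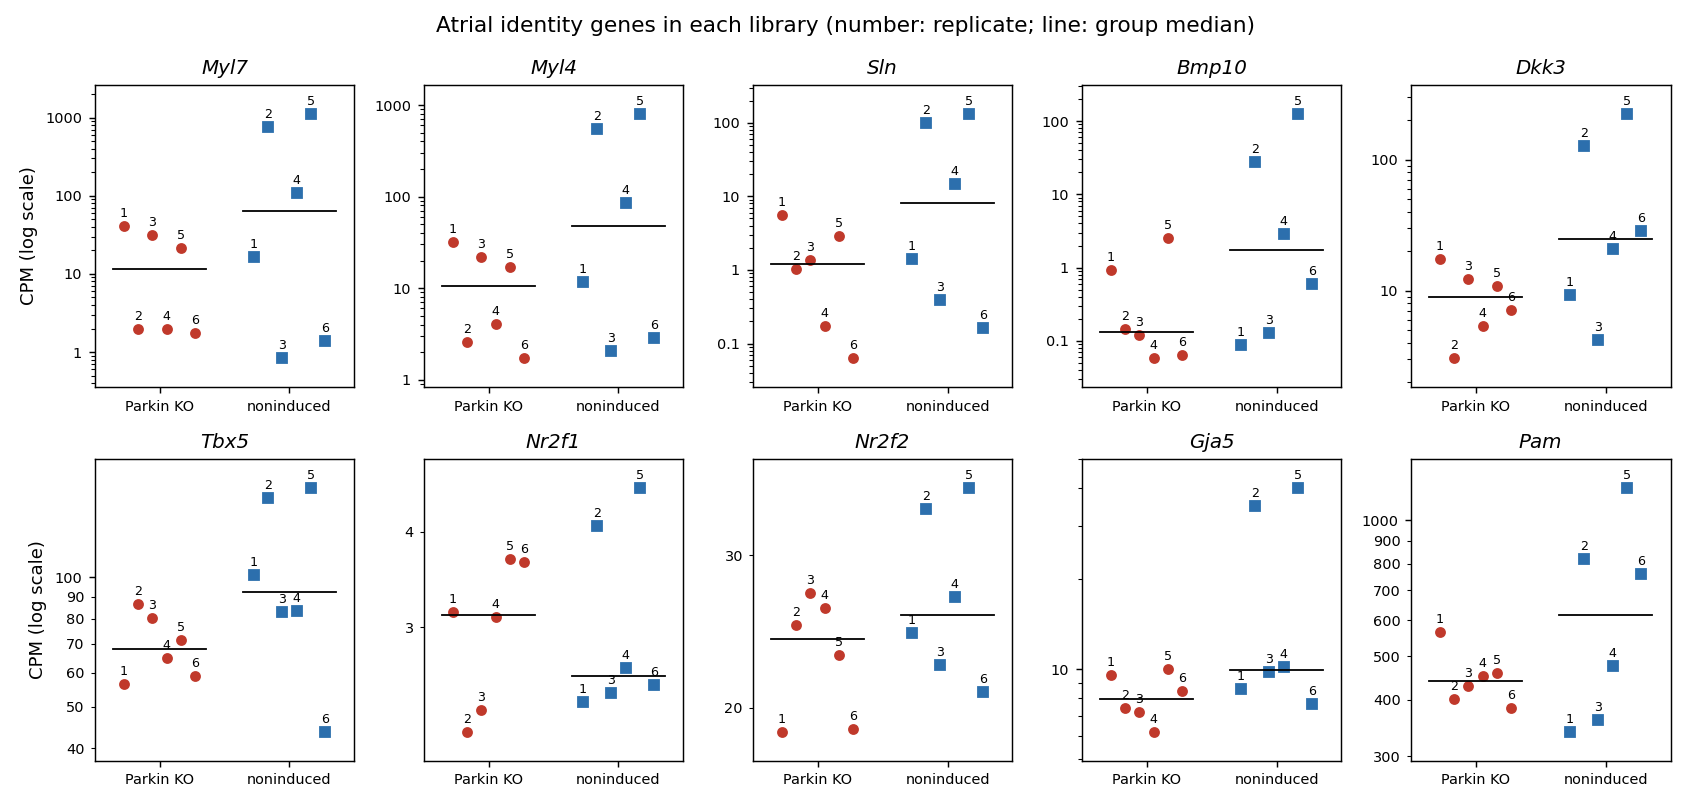
Level of each of the 10 genes in every library, in CPM on a log axis, with Parkin KO libraries as red circles and noninduced libraries as blue squares, numbered by replicate, and a line at each group's median. Noninduced replicates 5 and 2 are the highest points of every panel, with Myl7 at 1107 and 759.9 CPM, and the groups overlap in every panel.

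Myl7 (chr11:5896637-5898782, minus strand, GRCm38), the atrial regulatory light chain, ran from 1.73 to 40.7 CPM with a median of 11.7 CPM in Parkin KO hearts, and from 0.842 to 1107 CPM with a median of 62.9 CPM in noninduced hearts. Replicates 2, 4 and 5 of the noninduced group stood above every Parkin KO library, at 759.9, 109 and 1107 CPM, and the library labelled noninduced 3 and noninduced replicate 6 stood below every one. The groups thus overlap from end to end. Within Parkin KO there was a gap too, with replicates 1, 3 and 5 at 40.7, 31.8 and 21.3 CPM and replicates 2, 4 and 6 at 1.73 to 1.99 CPM. In bulk tissue, fewer cells of a type and less RNA per cell cannot be told apart. The fitted log2 fold change was -4.32 ± 1.42 (SE), and it did not pass (edgeR quasi-likelihood test, adjusted p = 0.417 over all genes). The exact two-sided permutation test of mean log2(CPM + 1), over every split of the 12 libraries into 6 and 6, gave p = 0.242 (adjusted p = 0.621 over all genes), where the smallest p it can give is 0.00216.

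Myl4 (chr11:104550663-104595753, plus strand), the atrial essential light chain, followed Myl7 closely. It ran from 1.73 to 32.3 CPM with a median of 10.6 CPM in Parkin KO hearts and from 2.07 to 795 CPM (794.9) with a median of 48.1 CPM in noninduced hearts. The same 3 noninduced libraries were above all Parkin KO libraries. Its log2 fold change was -4.18 ± 1.28 (SE; edgeR, adjusted p = 0.417), with an exact permutation p of 0.206.

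Per length the atrial light chains can be set beside the ventricular ones. Myl7 came to 0.0260 to 0.532% of the Myl2 FPKM in Parkin KO hearts. In noninduced hearts it came to 19.9% in replicate 5, 14.2% in replicate 2, 1.39% in replicate 4 and 0.0117 to 0.223% in the others. Myl4 came to 0.0338 to 0.718% of the Myl3 FPKM in Parkin KO hearts, and to 23.1%, 17.1% and 1.78% in noninduced replicates 5, 2 and 4. In the other noninduced hearts it came to 0.0572 to 0.372%. Both pairs of chains therefore order the libraries alike at the top, with replicates 5, 2 and 4 of the noninduced group first. In the 2 libraries of highest Myl7, the Myl2 level was 6191 CPM (replicate 5) and 5940 CPM (5939.9, replicate 2), the lowest of the 12 libraries, the rest standing at 6779 to 8747 CPM.

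Sln (chr9:53850164-53854560, plus strand), sarcolipin, a small membrane protein that restrains the calcium pump of the sarcoplasmic reticulum in atrial and skeletal muscle, ran from 0.0640 to 5.54 CPM with a median of 1.20 CPM in Parkin KO hearts and from 0.164 to 130 CPM (130.4) with a median of 8.15 CPM in noninduced hearts. These levels rest on between 1 and 83 reads in Parkin KO and between 3 and 2198 reads in noninduced libraries. The highest 3 libraries were again noninduced replicates 5, 2 and 4. For Sln the log2 fold change was -4.48 ± 1.30 (SE; edgeR, adjusted p = 0.417), with an exact permutation p of 0.167. Skeletal muscle markers, which could share Sln, summed over 10 genes to 4.14 to 7.52 CPM in Parkin KO and 4.27 to 10.9 CPM in noninduced libraries. That sum was also highest in noninduced replicates 5 and 2, at 10.9 and 9.48 CPM, and its part in the Sln levels was not tested.

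Bmp10 (chr6:87428994-87437677, plus strand) encodes a secreted ligand of the BMP family that the adult mouse makes mainly in the right atrium. It had 1, 1, 2, 2, 14 and 36 reads in Parkin KO libraries, the 36 in replicate 5, and 1 to 2097 reads in noninduced libraries. In CPM the medians were 0.133 in Parkin KO and 1.72 in noninduced hearts, with highest values of 2.55 and 124. Replicate 5 was the highest library of each group, although the labels do not pair the groups by number. Bmp10 had a log2 fold change of -5.39 ± 1.501 (SE; edgeR, adjusted p = 0.417), with an exact permutation p of 0.162.

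Dkk3 (chr7:112116017-112159057, minus strand), a secreted glycoprotein related to the Dickkopf inhibitors of Wnt signalling, had at least 42 reads in every library. It ran from 3.07 to 17.4 CPM with a median of 8.97 CPM in Parkin KO hearts and from 4.21 to 223 CPM with a median of 24.7 CPM in noninduced hearts. Noninduced replicates 5 and 2 led at 223 and 128 CPM. The third was noninduced replicate 6 at 28.3 CPM, a library with only 1.37 CPM of Myl7. Dkk3 had a log2 fold change of -2.88 ± 0.80 (SE; edgeR, adjusted p = 0.417), with an exact permutation p of 0.0823.

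Pam (chr1:97795114-98095646, minus strand), the enzyme that amidates peptide hormones and a major membrane protein of atrial secretory granules, was abundant in every library. It ran from 384 to 567 CPM with a median of 441 CPM in Parkin KO hearts and from 340.3 to 1179 CPM with a median of 617 CPM in noninduced hearts. Noninduced replicates 5, 2 and 6 were above all Parkin KO libraries, at 1179, 819.9 and 759.6 CPM, while the libraries labelled noninduced 1 and 3 were below all of them. Pam had a log2 fold change of -0.55 ± 0.26 (SE; edgeR, adjusted p = 0.438), with an exact permutation p of 0.208.

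Gja5 (chr3:96904693-97077416, plus strand) encodes connexin 40, the gap junction protein of atrial muscle, the Purkinje system and arterial endothelium. It ran from 6.19 to 9.997 CPM with a median of 7.95 CPM in Parkin KO hearts and from 7.67 to 40.2 CPM with a median of 9.95 CPM in noninduced hearts. Noninduced replicates 5 and 2 stood apart at 40.2 and 34.9 CPM, and the other noninduced libraries, at 7.67 to 10.1 CPM, lay almost wholly within the Parkin KO range. The log2 fold change was -1.18 ± 0.40 (SE; edgeR, adjusted p = 0.417), with an exact permutation p of 0.0649. Transcripts of 2 other genes share 15.3% of its 50-base words, so part of its count is uncertain. The arterial endothelial list (10 genes, which leave out Gja5) had a sum of 343 to 416 CPM in Parkin KO and 352 to 440.1 CPM in noninduced libraries, and of the 2 libraries of highest Gja5, noninduced replicate 5 had the lowest sum of its group and noninduced replicate 2, at 426 CPM, the second highest of the 12 libraries.

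Of the 3 transcription factors, Nr2f1 and Nr2f2 had the smallest spread over the 12 libraries among the 10 members. Tbx5 (chr5:119832668-119885219, plus strand) ran from 56.4 to 86.5 CPM with a median of 68.1 CPM in Parkin KO hearts and from 43.7 to 161 CPM with a median of 92.2 CPM in noninduced hearts. Noninduced replicates 5 and 2 and the library labelled noninduced 1 were above all Parkin KO libraries, and noninduced replicate 6 was below all of them. The log2 fold change was -0.58 ± 0.25 (SE; edgeR, adjusted p = 0.424), with an exact permutation p of 0.162.

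Nr2f2 (chr7:70351944-70366735, minus strand), which veins and lymphatics also express, ran from 18.8 to 27.1 CPM with a median of 24.0 CPM in Parkin KO and from 20.9 to 35.9 CPM with a median of 25.6 CPM in noninduced hearts. Its log2 fold change was -0.24 ± 0.15 (SE; edgeR, adjusted p = 0.503), with an exact permutation p of 0.19 (0.190476 before rounding). Nr2f1 (chr13:78188973-78199757, minus strand) was the lowest of the 3 factors per length, at a median of 1.51 FPKM in Parkin KO and 1.42 FPKM in noninduced hearts. It ran from 2.19 to 3.69 CPM in Parkin KO and from 2.40 to 4.57 CPM in noninduced hearts, and its medians, 3.12 and 2.59 CPM, lay the other way round from those of the other 9 members. Its log2 fold change was -0.04 ± 0.21 (SE; edgeR, adjusted p = 0.94), with an approximate 95% confidence interval of -0.485 to 0.401. These 2 factors share long identical words with other genes (7.35% of 50-base words for Nr2f2, 1.30% for Nr2f1), and exons of a gene on the opposite strand cover 7.46% of the Nr2f2 exon bases, which reads without strand cannot separate.

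As a set, the 10 members were lower in Parkin KO hearts by the sign of the fitted fold change in 10 of 10 cases, against 48% of the 13050 genes tested. Their median log2 fold change was -2.03, against 0.0098 over all genes tested. At an unadjusted p under 0.05, 7 of 10 were lower (edgeR; not Nr2f1, Nr2f2 and Pam), against 5.54% of all genes tested lower at the same threshold. That count was 0 of 10 with limma-voom, against 4.4% of all genes, and 0 of 10 with limma on log2 FPKM, against 4.24% (pseudocount 0.1), 4.27% (pseudocount 1) and 3.76% (no filter) of all genes. It was 4 of 10 with the replicate number as a block, against 5.9%. It was 4 of 10 with sex as a term (the library labelled noninduced 3 coded as the only male of its group), against 3.66%. It was 8 of 10 with RLE scaling, against 6.74%, with DESeq2, against 6.96%, and with no filter on low counts, against 4.92%. It was 9 of 10 without the libraries labelled noninduced 1 and 3, against 4.83%. Leaving out 1 library at a time, it was lowest without noninduced replicate 5, at 5 of the 9 members tested, against 6.64%, since Bmp10 then missed the filter on low counts, as it did without noninduced replicate 4. It was highest, at 8 of 10, without the library labelled noninduced 1 (4.45%), without the one labelled noninduced 3 (5.53%) and without noninduced replicate 6 (8.2%). At an adjusted p under 0.05 the count was 0 of 10, with 0% of all genes called; DESeq2 called 0 of 10 members and 10 genes in all, or 0.0767%. In the exact permutation test, 0 of 10 members had an unadjusted p under 0.05, against 3.99% of all genes being lower at that threshold. With 1 library left out at a time that count was at most 2 of 10, Dkk3 and Gja5 without the library labelled noninduced 3 (3.93% of all genes) and Tbx5 and Gja5 without noninduced replicate 6 (5.61%). The groups did not separate for any of the 10, against 0.115% of all genes with every Parkin KO library below every noninduced one. The members were chosen with these results known and share the same 2 extreme libraries, so these shares are a description.

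The fold changes rested on which noninduced libraries entered the fit. Without replicates 2 and 5 of the noninduced group, the libraries of highest Myl7, the log2 fold change was -0.95 ± 1.13 for Myl7, -0.94 ± 0.96 for Myl4, -1.22 ± 1.04 for Sln and -0.61 ± 0.996 for Bmp10 (SE). For Dkk3 it was -0.76 ± 0.49, for Gja5 -0.16 ± 0.15 and for Pam -0.11 ± 0.20. The number of members lower at an unadjusted p under 0.05 was then 0 of 10, against 3.55% of all genes tested. With noninduced replicate 4 left out as well, a choice made after seeing the data, Myl7 was at 1.49 ± 1.17, Myl4 at 1.30 ± 0.90 and Sln at 1.60 ± 1.07 (SE), each positive and 0 of 9 members lower at an unadjusted p under 0.05, against 7.53% of all genes (edgeR, adjusted p = 0.595, 0.539 and 0.525), and Bmp10 no longer passed the filter on low counts. Leaving out libraries for their high Myl7 must raise these fold changes, so the values show only how much those libraries carry. Without noninduced replicates 2, 4 and 5, Nr2f1 (0.28 ± 0.21) and Nr2f2 (0.026 ± 0.14) were positive as well (SE). Dkk3 (-0.61 ± 0.55), Tbx5 (-0.14 ± 0.22), Gja5 (-0.11 ± 0.17) and Pam (-0.13 ± 0.23) stayed negative.

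Without the libraries labelled noninduced 1 and 3, whose Esr1 goes against their label, the fold changes were larger. Myl7 was at -4.92 ± 1.24, Myl4 at -4.77 ± 1.10, Sln at -5.07 ± 1.09, Bmp10 at -5.98 ± 1.25 and Dkk3 at -3.44 ± 0.62 (SE). Pam was at -0.86 ± 0.20, Gja5 at -1.52 ± 0.39, Tbx5 at -0.67 ± 0.28, Nr2f2 at -0.36 ± 0.16 and Nr2f1 at -0.20 ± 0.23 (SE), and the adjusted p was 0.333 for Dkk3 and higher for the others (edgeR). In that comparison of 6 with 4 libraries, 5 of 10 members had an exact permutation p under 0.05, against 3.59% of all genes tested, while 0 members and 1 gene in all (0.00755%) passed the adjusted threshold of edgeR. The smallest was that of Dkk3 (exact p = 0.00476, the smallest that this comparison can give), for which all Parkin KO libraries lay below the 4 noninduced ones, against 0.559% of all genes. Of the 4 noninduced libraries kept, 3 are the ones of highest Myl7. Among the 8 female libraries (3 Parkin KO and 5 noninduced), the log2 fold change of Myl7 was -4.01 ± 1.72, that of Bmp10 -6.44 ± 2.15 and that of Dkk3 -2.81 ± 0.97 (SE; edgeR, adjusted p = 0.844 for each). This set keeps the library labelled noninduced 1.

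**Figure D2:**
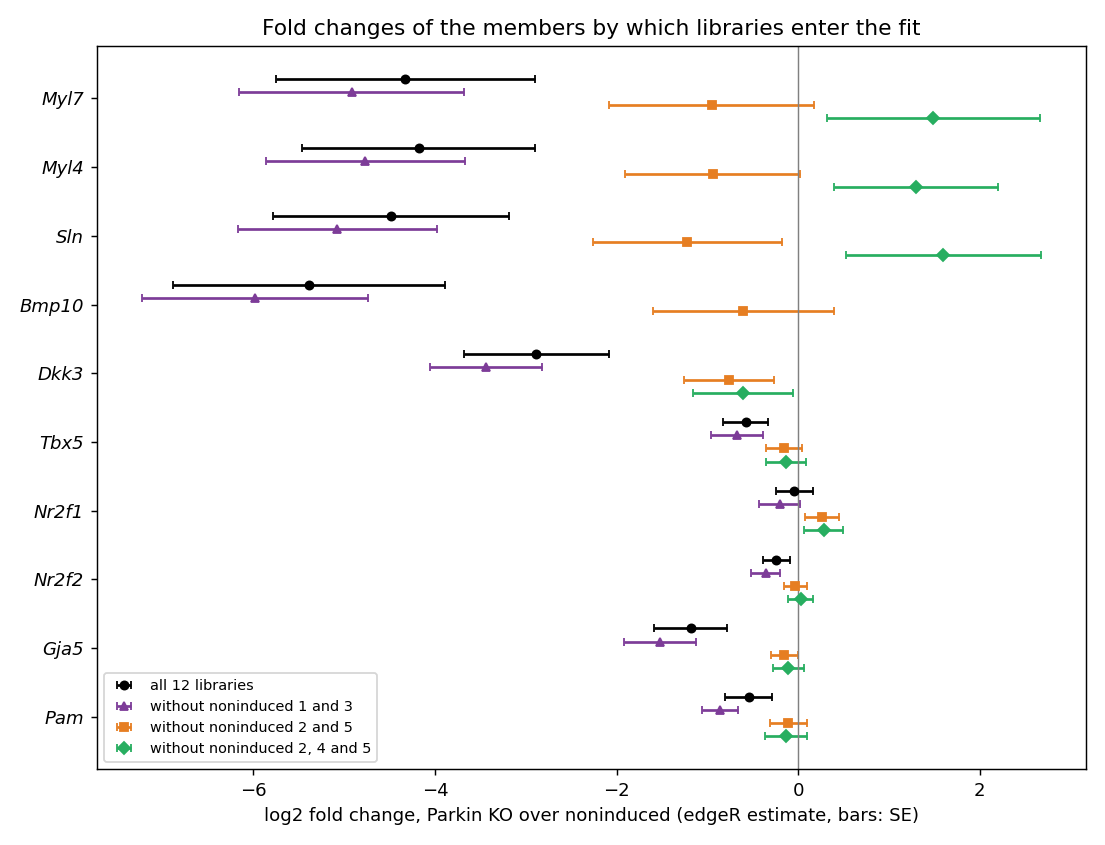
Log2 fold changes of the 10 genes, Parkin KO over noninduced, with SE bars, fitted on all 12 libraries and after leaving out the libraries labelled noninduced 1 and 3, noninduced replicates 2 and 5, or noninduced replicates 2, 4 and 5. Myl7 lies at -4.32 with all libraries and at 1.49 without noninduced replicates 2, 4 and 5, and Bmp10 has no point there because it did not pass the filter on low counts.

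The proportions between the most variable members were examined in the 7 libraries with at least 100 reads of Myl7. Myl4 made up 40.5 to 44.6% of the reads of Myl4 and Myl7 together, although Myl7 itself ranged from 185 to 18654 reads. In Parkin KO replicate 1 the share was 44.2% (exact 95% binomial interval 41.3 to 47.2%), and in noninduced replicate 5 it was 41.8% (41.3 to 42.3%). These intervals cover counting error only, as reads are not independent molecules. In the other 5 libraries, with 13 to 34 reads of Myl7, the Myl4 share was 50 to 71.1%. The exact intervals of Parkin KO replicates 2 and 6, 43.3 to 69.0% and 36.1 to 63.9%, reach the shares of the 7 libraries. Those of Parkin KO replicate 4, the library labelled noninduced 3 and noninduced replicate 6 begin at 57.0, 55.7 and 55.9%. These libraries were set apart by few Myl7 reads, which by itself raises the share.

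Sln made up 10.5 to 11.99% of the reads of Sln and Myl7 in 5 of these 7 libraries. It was lower in Parkin KO replicate 3, at 4.15% (exact interval 2.65 to 6.16%, 23 reads), and was 7.96% (4.62 to 12.6%, 16 reads) in the library labelled noninduced 1. The interval of Parkin KO replicate 3 lies below those of Parkin KO replicates 1 and 5 and of noninduced replicates 2, 4 and 5.

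Bmp10 did not keep such a proportion. Its share of the reads of Bmp10 and Myl7 was 10.7% in Parkin KO replicate 5 (exact interval 7.59 to 14.5%) and 10.1% in noninduced replicate 5 (9.70 to 10.5%). It was 2.25% in Parkin KO replicate 1 (1.23 to 3.74%), 0.375% in Parkin KO replicate 3 (0.0455 to 1.35%), 3.55% in noninduced replicate 2 (3.16 to 3.97%) and 2.53% in noninduced replicate 4 (1.86 to 3.34%). Both replicates 5 thus had a Bmp10 share whose interval lay above those of the other 5 libraries. Mybphl, an atrial gene outside the 10, made up 10.6 to 17.8% of the reads of Mybphl and Myl7 in the same 7 libraries.

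**Figure D3:**
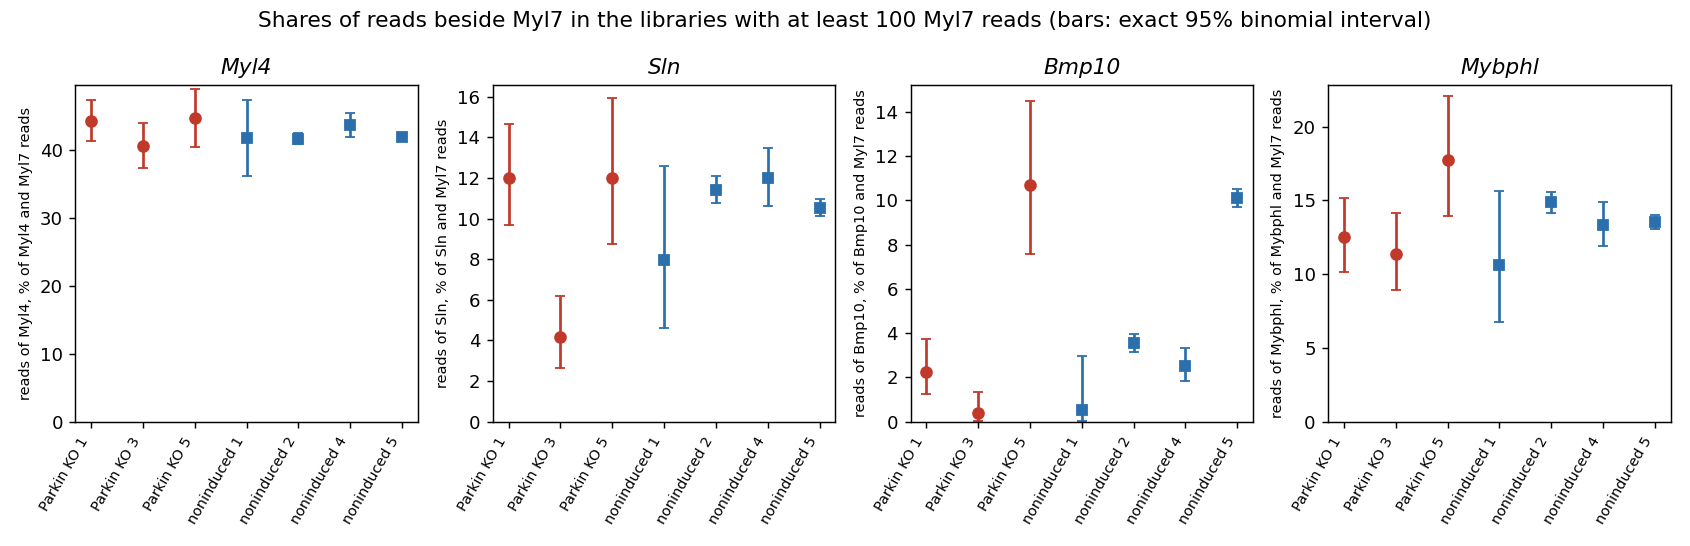
Reads of Myl4, Sln, Bmp10 and Mybphl as a percentage of the reads of that gene and Myl7, in the 3 Parkin KO libraries (red circles) and 4 noninduced libraries (blue squares) with at least 100 Myl7 reads, with exact 95% binomial intervals. Myl4 stays between 40.5 and 44.6%, whereas Bmp10 runs from 0.375 to 10.7%.

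**Figure D4:**
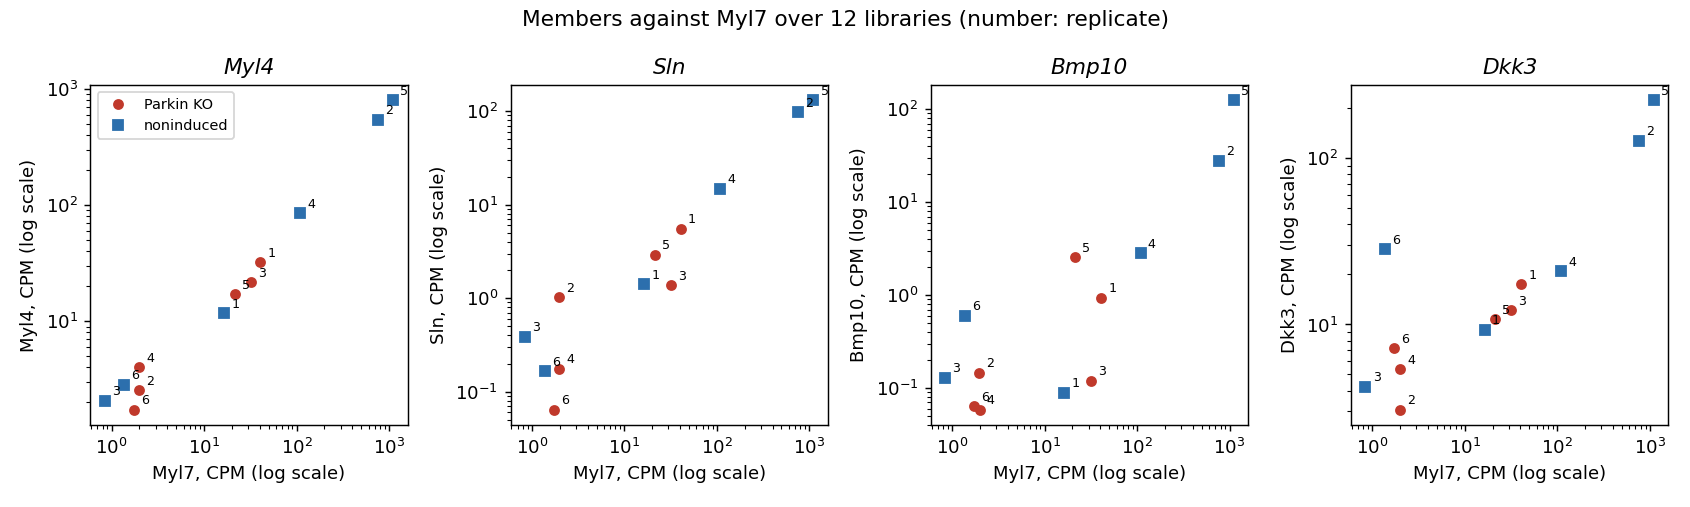
CPM of Myl4, Sln, Bmp10 and Dkk3 against CPM of Myl7, both on log axes, for Parkin KO (red circles) and noninduced libraries (blue squares), numbered by replicate. Myl4 lies along a line with Myl7 in both groups. Among the libraries of low Myl7, Dkk3 ran from 3.07 CPM in Parkin KO replicate 2 to 28.3 CPM in noninduced replicate 6.

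Other atrial genes, a list of 14 that leaves out the members, gave the same picture in part. Of 11 tested, 11 had a negative log2 fold change, against 48% of all genes, with a median of -0.52. At an unadjusted p under 0.05, 5 were lower (edgeR), against 5.54% of all genes, while 0 passed the adjusted threshold. Mybphl, a myosin binding protein H-like protein of atrial and conduction muscle, ran from 0.256 to 5.81 CPM in Parkin KO and from 0.438 to 174 CPM in noninduced hearts. Its log2 fold change was -4.36 ± 1.26 (SE; edgeR, adjusted p = 0.417). Sbk2 had a log2 fold change of -1.70 ± 0.54 and the lipid transfer protein gene Stard10 one of -1.17 ± 0.46 (SE; edgeR, adjusted p = 0.417 and 0.424). Hamp, which encodes the iron hormone hepcidin, gave 243 reads in noninduced replicate 5 and 80 in noninduced replicate 2, at most 10 in Parkin KO libraries and 1 to 9 in the other noninduced ones. The atrial potassium channel subunit genes Kcnj3 and Kcnj5 named after their values were seen, had log2 fold changes of -0.71 ± 0.36 and -0.03 ± 0.20 (SE; edgeR, unadjusted p = 0.0687 and 0.866). Nppa, the atrial natriuretic peptide gene, which stressed ventricles also express, ran from 147 to 1450.2 CPM with a median of 272 CPM in Parkin KO and from 113 to 4049 CPM with a median of 1094 CPM in noninduced hearts. Its log2 fold change was -1.88 ± 0.85 (SE; edgeR, adjusted p = 0.432), and its highest library was noninduced replicate 6, with only 1.37 CPM of Myl7.

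Genes with a pattern most like Myl7 were ranked over all tested genes by Pearson r on log2(CPM + 1) across the 12 libraries, as a description with no test, since a few high libraries shape such values. The member Myl4 came first (r = 0.994), and Mybphl, outside the 10, came next (r = 0.974, Spearman rho 0.909), ahead of the member Sln (r = 0.960). The next gene outside the 10 was Ppp1r1b (r = 0.936, rho 0.909), an inhibitor of protein phosphatase 1. It was followed by Ifltd1 (r = 0.894), Il33 (r = 0.880), Gng2 (r = 0.880), Unc13b (r = 0.880), Chst11 (r = 0.877) and Stard10 (r = 0.875). Ppp1r1b ran from 0.192 to 1.56 CPM in Parkin KO and from 0.110 to 18.8 CPM in noninduced hearts. Among members, r with Myl7 was 0.869 for Bmp10, 0.861 for Dkk3, 0.840 for Gja5, 0.746 for Tbx5, 0.737 for Nr2f2, 0.672 for Pam and 0.604 for Nr2f1, all over the same 12 libraries.

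The conduction system and the ventricular identity of the samples were read from lists of their own, with no test of a difference from the members. Of 11 conduction genes tested, 7 had a negative log2 fold change, against 48% of all genes, and 4 a positive one, with a median of -0.06. At an unadjusted p under 0.05, 2 were lower, Etv1 (-0.48 ± 0.16, SE) and Cpne5 (-1.54 ± 0.72), against 5.54% of all genes, with 0 past the adjusted threshold (edgeR). Cpne5 ran from 0.512 to 2.28 CPM in Parkin KO and from 0.110 to 8.13 CPM in noninduced hearts, highest in replicates 5 and 2 of the noninduced group, like the members. The sum of the list was highest in the library labelled noninduced 1 and lowest in noninduced replicate 6. Of all 13050 genes tested, 6783 had a positive log2 fold change. Of 15 ventricular genes tested, 10 had a positive one, with a median log2 fold change of 0.07. Of these, 2 genes, Myl3 (0.33 ± 0.12, SE) and the calcium pump inhibitor Pln (0.30 ± 0.11), were higher at an unadjusted p under 0.05, against 5.82% of all genes, and 0 passed (edgeR, adjusted p = 0.424 for both). Irx5 was at 0.36 ± 0.19 (SE; edgeR, adjusted p = 0.451). Irx4, a ventricular transcription factor, was at 0.17 ± 0.10 and Myl2 at 0.14 ± 0.12 (SE; edgeR, adjusted p = 0.496 and 0.631), and Hey2, a repressor of atrial genes in the ventricle, was at -0.24 ± 0.23 (adjusted p = 0.659). The list's sum was lowest in noninduced replicates 2 and 5, at 13340.4 and 13795 CPM, against 16762 to 20932 CPM in Parkin KO and 16097 to 20380.3 CPM in the other noninduced libraries.

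Markers of other cell types moved with the members in part. The summed CPM of 6 endocardial genes was 151 to 181 in Parkin KO and 166 to 291 in noninduced libraries, with noninduced replicates 5 and 2 highest at 291 and 233 CPM. The summed CPM of 9 mesothelial and epicardial genes was 16.2 to 26.7 in Parkin KO and 21.2 to 55.4 in noninduced libraries, again highest in noninduced replicate 5. Of the tested genes, 6 of 6 endocardial and 6 of 6 mesothelial ones had a negative log2 fold change, against 48% of all genes, with 3 and 2 lower at an unadjusted p under 0.05 (edgeR), against 5.54%. Smooth muscle genes had a negative log2 fold change in 8 of 8 cases, 3 of them at an unadjusted p under 0.05, with sums of 3294 to 4396 CPM in Parkin KO and 3438 to 5512 CPM in noninduced libraries, highest in noninduced replicate 6. Venous and lymphatic genes had one in 8 of 8, 1 of them at that p, with sums of 393 to 454 CPM in Parkin KO and 445 to 548 CPM in noninduced libraries, highest in noninduced replicate 4. Fibroblast genes had one in 7 of 10, 0 of them at that p, with sums of 2059 to 3956 CPM in Parkin KO and 2023 to 3614 CPM in noninduced libraries. Nerve and ganglion genes summed to 12.04 to 18.6 CPM in Parkin KO and 7.73 to 26.3 CPM in noninduced libraries. Adipocyte genes summed to at most 2.40 CPM in Parkin KO and to at most 9.20 CPM in noninduced libraries, highest in noninduced replicate 5. The 10 general cardiomyocyte genes summed to 82111 to 102205 CPM in Parkin KO and 67730.0 to 92491 CPM in noninduced libraries. Single genes, named here after their values were seen, weighed heavily in several of these lists. Myh6, a general cardiomyocyte gene, averaged 41958 CPM over the Parkin KO hearts and 33578 over the noninduced ones. Dbh, of the nerve list, averaged 6.02 and 6.63 CPM in that order, and the adipocyte gene Cfd 0.452 and 1.35 CPM. Des, the highest smooth muscle gene, averaged 3383 CPM over the Parkin KO hearts, against 3885 over the noninduced ones. Gsn, the highest fibroblast gene, averaged 1901 and 1632 CPM in the same order. The smooth muscle sums therefore mostly describe Des, and Gsn weighs most in the fibroblast sums. The part of these cell types in the members' levels was not tested.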

How the data were processed

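RNA of 12 libraries, 6 per group as the labels give them, was analysed. The authors' deposited table holds HTSeq read counts per gene, and per the submitters' processing notes reads were aligned with TopHat2 (2.0.10) and Bowtie2 to mm10. The authors' deposited FPKM values come from Cufflinks (2.1), per the same notes; 4 genes whose FPKM was listed at 0 in a library with over 1000 counts were left out of FPKM tests. The counting's use of strand is not given in the sources used here. Gene positions are from GENCODE on GRCm38.

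Counts were tested with edgeR 4.0.16 in R 4.3.3 (TMM, filterByExpr, quasi-likelihood test, Benjamini-Hochberg over all tested genes, threshold 0.05), and each gene also with an exact two-sided permutation test of log2(CPM + 1). Alternatives were RLE scaling, DESeq2 1.42.0, limma 3.58.1 with voom or on log2 FPKM (pseudocounts 0.1 and 1, mean FPKM of at least 0.5 or no filter), no count filter, single libraries left out, a replicate block, a sex term, female libraries, and noninduced libraries 1 and 3 or 2 and 5 left out. The genes named are the 10 members, the 3 of smallest p in each of 3 related lists plus Nppa, Hamp, Myl2, Irx4 and Hey2, and the 8 most like Myl7 by Pearson r; others are marked as named later. Members and lists were chosen with earlier results of these data known. The labels do not tie each library to its own animal in so many words, so p-values measure the spread between these samples. The targeted gene and some genes that the rule names are not reported here.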

Additional observations from a re-analysis of the deposited data

Results flagged for a closer look

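Bmp10 had 1 library far above the rest of its group in both groups. In Parkin KO, replicate 5 stood at 2.55 CPM and the next library at 0.935 CPM, a gap of 0.648 of the group's range, where the 95% critical value for 6 samples is 0.625. In the noninduced group, replicate 5 stood at 124 CPM and the next library at 28.0 CPM, a gap of 0.776 of the range. Of the 20 groups examined (10 genes in 2 groups), 2 were marked in this way. Chance marks about 1 in 20 where values are normally distributed and groups are independent. Neither holds here, since noninduced Bmp10 ran from 0.0887 to 124 CPM with a median of 1.72, and the genes share the same libraries. The marks are therefore a description. The Parkin KO value rests on 36 reads.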

How the results depend on the processing

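Across 247 recomputed fold changes of single members, 237 kept their sign and their side of the adjusted threshold, and 10 changed sign. The cause was not tested, and 0 of them passed that threshold in any setting. The sizes moved more. Myl7 was -4.32 ± 1.42 with edgeR and -4.34 ± 1.35 with DESeq2. It was -2.15 ± 1.90 with limma-voom and -2.18 ± 1.78 on log2 FPKM (pseudocount 0.1, all SE). In the same order, Sln was -4.48, -4.49, -2.50 and -2.56. Nr2f1 changed sign in 6: it was 0.023 when Parkin KO replicate 2 was left out, 0.011 for Parkin KO replicate 3, 0.023 for noninduced replicate 2, 0.10 for noninduced replicate 5, 0.26 without noninduced replicates 2 and 5, and 0.28 without noninduced replicates 2, 4 and 5. Leaving out 1 library at a time, Nr2f1 ran from -0.12 to 0.10. Without noninduced replicates 2, 4 and 5, Myl7 was 1.49, Myl4 1.30, Sln 1.60 and Nr2f2 0.026. The number of genes past the adjusted threshold was 10 with DESeq2 and 1 without the libraries labelled noninduced 1 and 3, against 0 in the edgeR fit of all libraries (1483 genes at an unadjusted p under 0.05), and 0 to 0 leaving out single libraries. Members lower at an unadjusted p under 0.05 numbered 7; they numbered 0 with limma-voom, with each of 3 FPKM fits and without noninduced replicates 2 and 5 or 2, 4 and 5, 4 with the sex term, 8 with RLE scaling, DESeq2 and no count filter, and 9 without the libraries labelled noninduced 1 and 3. Leaving out single libraries gave 5 (of 9 tested) to 8. Exact permutation p-values under 0.05 were found for 5 members without the libraries labelled noninduced 1 and 3 and for 0 to 2 leaving out single libraries, and groups without overlap for 1 and for 0 to 0.

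With the replicate number as a block, 4 members were lower at an unadjusted p under 0.05, with Myl7 at -2.93 and Bmp10 at -4.68. Same-numbered libraries did not deviate together (correlations of -0.111 to 0.200), and only Parkin KO replicate 4 was nearest to its own number.

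The lowest levels of Bmp10 and Sln rest on 1 read, so depth limits their fold changes.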

Other observations

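Noninduced replicate 6 differed from the other libraries in genes of cardiac stress. The summed level of 8 stress genes was 2067 to 7626 CPM in Parkin KO libraries, where replicate 1 was highest. It was 17349 CPM in noninduced replicate 6 and between 1963 and 3492 CPM in the remaining noninduced replicates. In replicate 6, Acta1 stood at 9167 CPM and Ankrd1 at 6188 CPM, so the sum there mostly describes Acta1 and Ankrd1. The slow myosin gene Myh7 was highest in a Parkin KO library in FPKM, at 2112, against at most 2071 in noninduced libraries. By counts, however, it stood at 6462 CPM in noninduced replicate 6, the highest of 12 libraries. In the same library Myl7 was 1.37 CPM, Sln rested on 3 reads, and Pam and Dkk3 stood at 759.6 and 28.3 CPM. High Nppa thus came with high Myl7 in noninduced replicates 5 and 2, at 3607 and 1775 CPM of Nppa, and without it in replicate 6, at 4049 CPM. Noninduced replicate 4, whose Myl7 was above every Parkin KO library, stood below the noninduced median of 1094 CPM of Nppa. These genes were singled out after their values were seen.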
